A study of Mus musculus with 8 samples.

Results

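Pou5f1, Sox2, Nanog, Klf4, Klf5, Dppa3, Esrrb, Zfp42 and Utf1 are genes of the transcriptional network that keeps embryonic stem cells and early germ cells pluripotent. They were followed here in RNA that was precipitated with a tagged form of Dazl from mouse testis. A probe was taken as a member where its gene name on the array equals one of these symbols, which gave 9 of the 27962 gene names on the array and 12 probes. Zfp42, Klf5 and Esrrb have 2 probes each and the other 6 genes have 1. Of the 9 genes, 7 could be tested, since in at least 1 group both arrays read a probe of theirs well above background, as was the case for 17593 genes in all. Sox2 and Nanog were not well above background on any array.

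The RNA came from testes of male mice of a mixed C57BL/6 and 129SV background at postnatal day 14. The labels give the cells as testicular germ cells that express Dazl fused to GFP and V5, and all 4 groups share this fusion. The testes were dissociated and lysed, and RNA was precipitated from the lysate without ultraviolet crosslinking. The 4 groups of 2 arrays are input (total RNA, no antibody), IgG (a mock precipitate with normal mouse IgG), V5 (precipitated by anti-V5) and GFP (precipitated by anti-GFP). What drives the fusion, whether untagged Dazl is also present, and whether animals were pooled is not given in the sources used here. No label states that replicates come from separate animals, so p-values measure only how far these samples spread, and that spread may be technical.

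Dazl is an RNA-binding protein of germ cells that binds messenger RNAs, mostly in their 3' untranslated regions, and works with poly(A)-binding proteins in the control of translation. Pou5f1, Sox2 and Nanog form the core of the pluripotency network, and Klf4, Klf5 and Esrrb are DNA-binding factors that act with the core. Zfp42, Utf1 and Dppa3 are widely used markers of the pluripotent state, and in the germ line Pou5f1, Nanog and Dppa3 are known from primordial germ cells, while Utf1 and Zfp42 are also known from the postnatal testis. The study's title names pluripotency in primordial germ cells, and the question here is which transcripts of this network were more or less abundant in the precipitates than in the mock precipitate.

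The arrays had 75th percentiles of signal between 857 and 1115, 57.2% to 62.2% of spots well above background, and 0 saturated spots. Input shared a slide with IgG, and V5 shared a different slide with GFP, so in a comparison of V5 or GFP with IgG or input the slide and the antibody cannot be told apart. The design text has anti-PABP1 in place of the samples' anti-GFP, and in input replicate 2 and V5 replicate 1 the description contradicts the title on the kind of RNA; the samples' antibody and the titles were used. The RNA was not from germ cells alone: all 16 Sertoli markers, such as Amhr2 and Dhh, lay above background on every array. Their summed signal was 44638% to 45272% of an array's 75th percentile in input, 55179% to 57725% in IgG, 42309% to 44255% in V5 and 35082% to 36737% in GFP. Such a sum is weighted to its brightest probes. Amhr2 alone read 11990% and 12150% in input and 22750% and 24720% in IgG. Of the 16 markers 7 were higher and 5 lower in IgG than in input, where 43.9% and 29.3% of all genes were. Their median log2 fold change there was -0.02. The 12 measured spermatogonial markers summed to 16586% to 16725% in input, 14078% to 14835% in IgG, 17560% to 17763% in V5 and 19425% to 20487% in GFP. Other germ cell markers did not follow them. The 12 spermatocyte markers summed to 37755% to 39379%, 37951% to 42131%, 32946% to 34325% and 29411% to 30394% in the same order. For the 8 measured spermatid markers the sums were 153% to 164%, 142% to 144%, 113% to 118% and 94% to 97%.

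Levels below are signals as a percentage of the 75th percentile of the same array, with replicate 1 given before replicate 2. They compare groups for 1 probe and not probes with each other, whose brightness depends on their sequence. Input is RNA from mixed cells, where few cells of a type and little RNA per cell cannot be told apart. Differences between groups are differences between RNA preparations of the same kind of testis and are not read here as numbers of cells.

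Pou5f1, the POU-domain factor also called Oct4, had a signal of 12.1% and 12.4% in input, 9.28% and 12.4% in IgG, 8.55% and 7.99% in V5, and 12.8% and 7.12% in GFP. All 8 arrays were well above background, but the GFP replicates differed 1.80-fold and the IgG replicates 1.34-fold. The order of group means was input, IgG, GFP, V5, and no neighbours in this order differed past the threshold. Sox2, the HMG-box partner of Pou5f1, read 0.74% and 0.72% in input, 0.84% and 2.53% in IgG, 0.78% and 0.77% in V5, and 1.10% and 1.32% in GFP. The homeodomain factor Nanog read between 0.53% and 0.72% on the 8 arrays. On the same arrays the dimmest spot well above background lay at 2.12% to 2.89%, a level that is no ceiling for undetected spots. Neither transcript was given a fold change. The Nanog probe rests on a cDNA accession that was matched to no RefSeq transcript of that gene in the table used.

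Klf4, a Kruppel-like zinc finger factor and one of the reprogramming factors, was at 632% and 591% in input, 875% and 1014% in IgG, 855% and 983% in V5, and 970% and 948% in GFP. The input arrays were the lowest and the 3 precipitates overlapped. Klf5, a related factor of the stem cell network, was at 25.5% and 25.9% in input, 28.3% and 32.1% in IgG, 67.8% and 58.6% in V5, and 100.1% and 99.96% in GFP. The 4 groups of Klf5 did not overlap, in the order input, IgG, V5, GFP, and input and IgG did not differ past the threshold. Esrrb, an orphan nuclear receptor, was at 1.65% and 1.68% in input, 4.12% and 4.79% in IgG, 3.74% and 4.57% in V5, and 4.52% and 5.47% in GFP. It was well above background on 0 input arrays, on IgG replicate 2, and on all 4 V5 and GFP arrays, and the 3 precipitates overlapped. Esrrb passed the background filter through V5 and GFP alone, so a higher level there than in input was a condition of its being kept, and its differences from input in V5 and GFP are given without a test.

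Dppa3, also called Stella, a small protein that protects DNA methylation in the early embryo, was at 6.66% and 6.26% in input, 6.05% and 5.18% in IgG, 17.3% and 16.2% in V5, and 25.5% and 24.9% in GFP. The order of groups was GFP, V5, input, IgG with no overlap, and the difference between input and IgG did not pass the threshold. Zfp42, the zinc finger protein also called Rex1, was at 260% and 259% in input, 174% and 151% in IgG, 258% and 234% in V5, and 324% and 297% in GFP. GFP was highest and IgG lowest, and input and V5 lay next to each other without differing past the threshold. Utf1, a chromatin-associated factor, was at 15.7% and 17.1% in input, 16.6% and 17.9% in IgG, 10.7% and 9.63% in V5, and 10.4% and 9.47% in GFP. Its V5 and GFP arrays overlapped and lay below the overlapping input and IgG arrays.

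**Figure D1:**
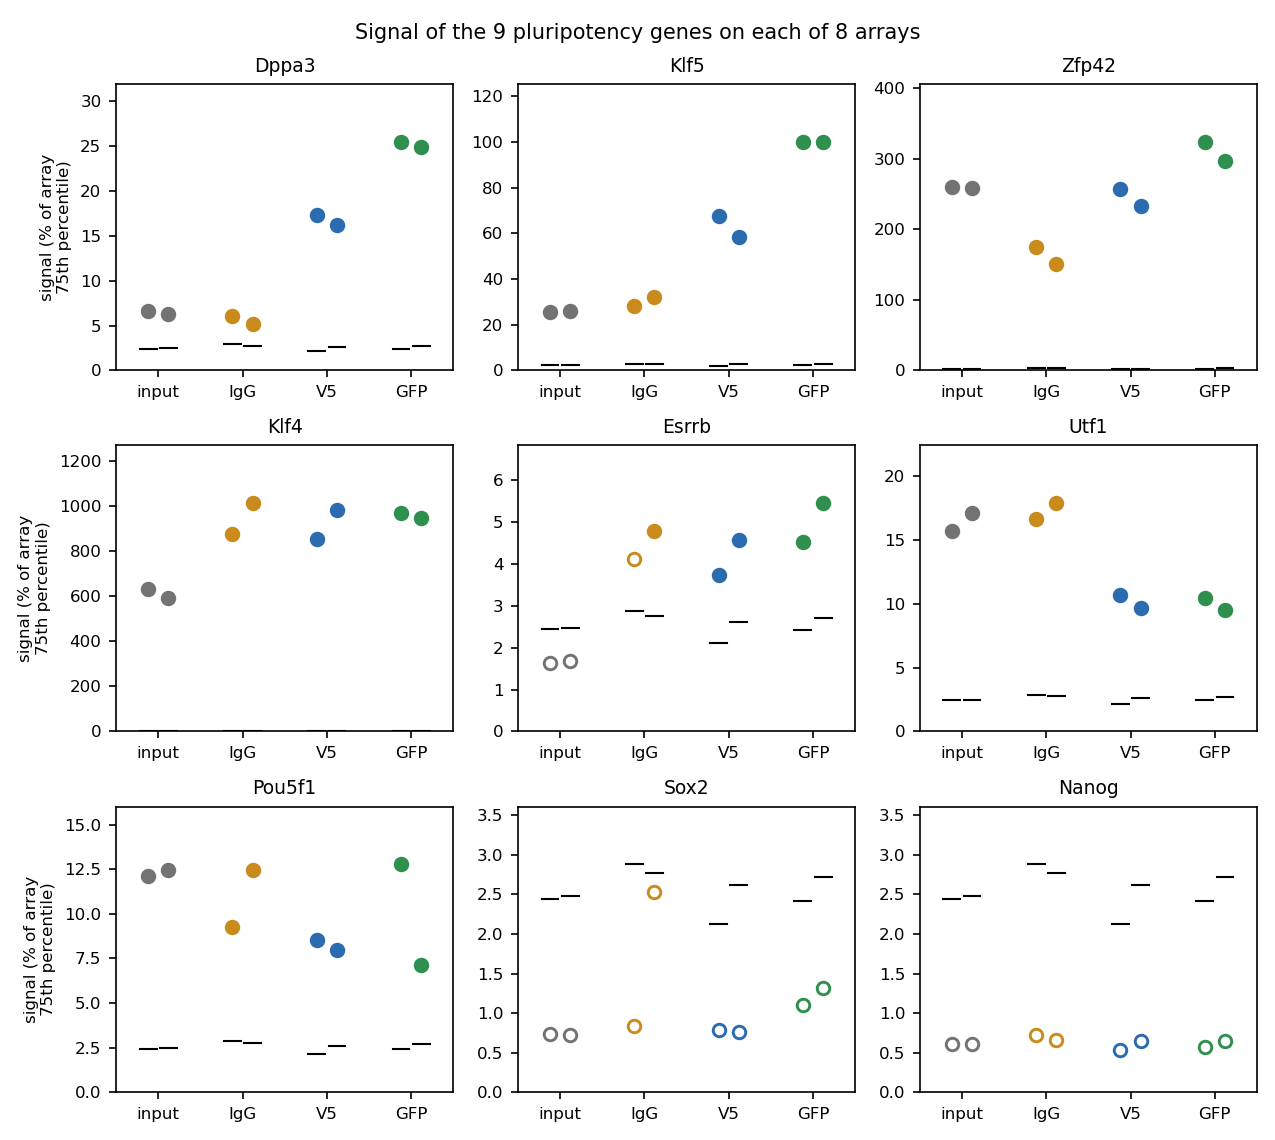
Signal of the 9 genes on each of the 8 arrays, as a percentage of the array's 75th percentile on a linear axis from 0, by group; filled points are well above background, open points are not, and each short line is the dimmest spot well above background on that array. Dppa3 and Klf5 are highest on the GFP arrays and next on the V5 arrays, Utf1 is lowest on both, and Sox2 and Nanog are open on all 8 arrays.

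The V5 precipitate was compared with the IgG mock to see which of these transcripts came down with the tag above the mock. Dppa3 was 2.99-fold higher with V5 (log2 fold change 1.58 ± 0.093 SE, limma adjusted p = 0.000755, 2 arrays per group). Klf5 was 2.09-fold higher (1.06 ± 0.097, adjusted p = 0.00116) and Zfp42 1.51-fold higher (0.60 ± 0.098, adjusted p = 0.0048). Utf1 was 1.70-fold lower (-0.77 ± 0.093, adjusted p = 0.00222). Klf4 (-0.039, 95% confidence interval -0.29 to 0.21), Esrrb (-0.10, interval -0.44 to 0.23) and Pou5f1 (-0.38, interval -1.04 to 0.28) did not pass, and the interval of Pou5f1 is the widest of the 7.

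Of the 7 tested genes 3 were thus higher and 1 lower with V5, where 16.7% and 40.3% of all genes tested were. In both directions together 57.0% of all genes passed the threshold, so that 4 of 7 is near the background. Dppa3 lay at percentile 99.7 of the fold changes of all genes, Klf5 at 97.9, Zfp42 at 91.7 and Utf1 at 7.80. The median log2 fold change was -0.21 over all genes and -0.04 over the 7, and relative to the median of all genes Dppa3 stood at 1.79, Klf5 at 1.27, Zfp42 at 0.80 and Utf1 at -0.56. Of all calls 29.3% were higher, a share that became 75.5% when arrays were scaled to their median, 39.5% with quantile normalization and 87.2% with spike-in scaling, while these 4 genes kept their direction and stayed past the threshold under all 3. With normexp background correction 0 of all genes passed limma's threshold, with 3694 at an unadjusted p under 0.05. The 4 genes then read 0.70 for Dppa3, 0.86 for Klf5, 0.52 for Zfp42 and -0.24 for Utf1. That correction adds an offset of 50 to each signal. In IgG the unscaled signal used above was 54.9 and 44.4 for Dppa3 and 1583 and 1292 for Zfp42. The part of the offset in the smaller values was not tested. Without both arrays of conflicting descriptions the call of Zfp42 ended.

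Against the same mock, the GFP precipitate gave larger differences for Dppa3 and Klf5. Dppa3 was 4.50-fold higher (2.17 ± 0.093, limma adjusted p = 7.45e-05) and Klf5 3.32-fold higher (1.73 ± 0.097, adjusted p = 9.54e-05). Zfp42 was 1.91-fold higher (0.94 ± 0.098, adjusted p = 0.000407) and Utf1 1.74-fold lower (-0.80 ± 0.093, adjusted p = 0.000543). Klf4 read 0.026 (interval -0.23 to 0.28), Esrrb 0.16 (interval -0.17 to 0.50) and Pou5f1 -0.17 (interval -0.83 to 0.49), which did not pass. The V5 and GFP precipitates share the IgG arrays as control, so their 2 sets of values are not independent of each other.

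With GFP 3 of the 7 genes were higher and 1 lower, where 21.6% and 52.1% of all genes were and 73.7% passed in either direction. The median was -0.32 over all genes and 0.16 over the 7. Dppa3 lay at percentile 99.8 of all genes and Klf5 at 99.0. Of all calls 29.3% were higher, against 52.6% with median scaling and 76.7% with spike-in scaling, and the 4 called genes kept their direction and their calls under these and under quantile normalization. Under other scalings 2 further genes passed as higher with GFP: Klf4 at 0.32 with median and 0.50 with spike-in scaling, and Esrrb at 0.45, 0.53 and 0.64 with median, quantile and spike-in scaling. With normexp the calls of Dppa3 (0.99, adjusted p = 0.0924) and Utf1 (-0.33) ended, and without GFP replicate 1 Pou5f1 passed as lower at -0.59.

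**Figure D2:**
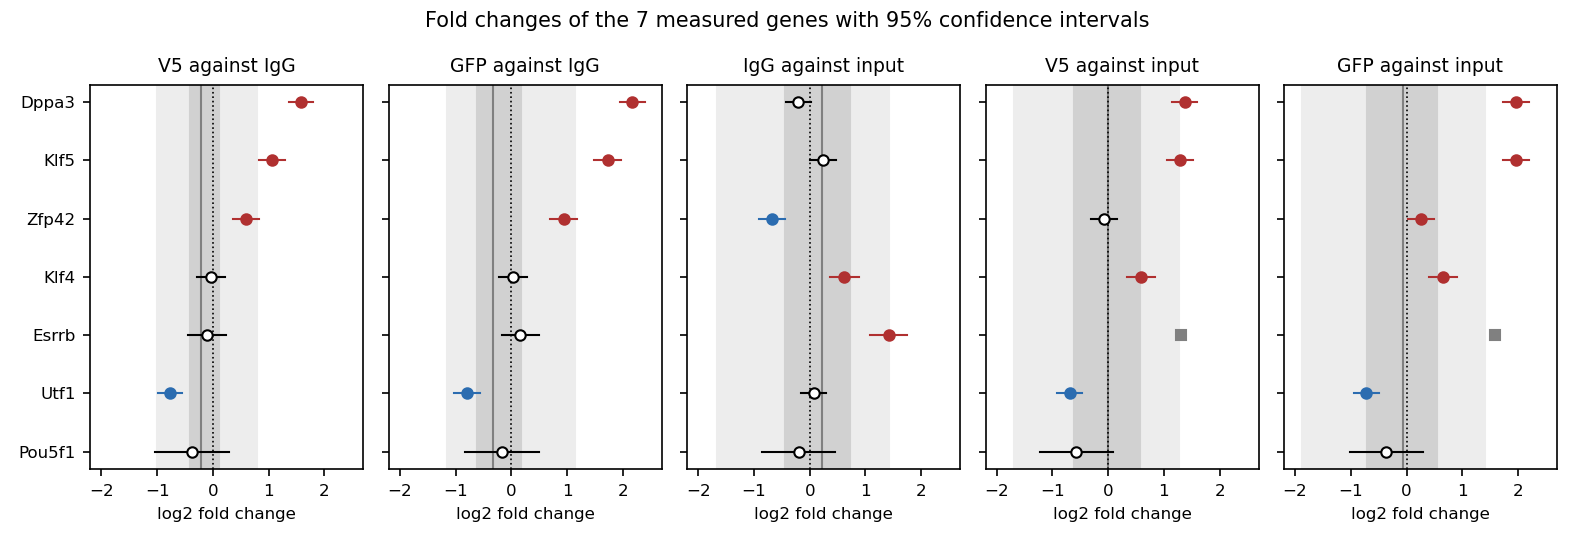
Log2 fold changes of the 7 tested genes in 5 comparisons with 95% confidence intervals from limma; red points passed the threshold as higher, blue as lower and open points did not, grey squares show Esrrb in V5 and GFP against input without a test, the dark band holds the middle 50% of all genes, the pale band the middle 90%, and the grey line is their median. Dppa3 and Klf5 lie to the right of the pale band in both comparisons with IgG, and Utf1 lies to the left of 0 in both.

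V5 and GFP arrays lie on the same slide, so their comparison does not cross slides. Klf5 was 1.59-fold lower with V5 than with GFP (-0.67 ± 0.097, limma adjusted p = 0.0281), and Dppa3 was 1.50-fold lower (-0.59 ± 0.093, adjusted p = 0.0289). Zfp42 read -0.34 ± 0.098 (adjusted p = 0.0618), Esrrb -0.27 (interval -0.60 to 0.069), Pou5f1 -0.21 (interval -0.86 to 0.45), Klf4 -0.065 (interval -0.32 to 0.19) and Utf1 0.028 (interval -0.20 to 0.25). Of the 7 genes 2 were thus lower and 0 higher, with 3 at an unadjusted p under 0.05, where 7.17% of all genes were lower, 6.76% higher and 13.9% either. Of all calls 48.5% were higher, against 31.5% with median and 8.85% with spike-in scaling. Both calls ended when either input, V5 or GFP array was left out, when the fit held only the compared groups, with normexp, with no background filter, with the replicate block (adjusted p = 0.05 for both) and without both arrays of conflicting descriptions (adjusted p = 0.246 for both), and they held without either IgG array. Zfp42 passed as lower with spike-in scaling (-0.45), over the genes above background on all arrays and without either IgG array. The fold changes themselves moved less: over the left-out arrays Klf5 ranged from -0.77 to -0.56 and Dppa3 from -0.63 to -0.54.

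The mock precipitate was also compared with input, on the same slide, as the background of precipitation without an antibody against a tag. Klf4 was 1.54-fold higher in IgG than in input (0.62 ± 0.10, limma adjusted p = 0.00156). Esrrb, not well above background in input, had a fitted 1.42 (adjusted p = 0.000127), or 1.81-fold with input taken at its dimmest spots well above background, with 1 of 2 IgG arrays above background. That level is no ceiling for undetected spots, since the Esrrb probe itself was not well above background at 4.12% on IgG replicate 1. Zfp42 was 1.60-fold lower (-0.68 ± 0.098, adjusted p = 0.000785). Klf5 (0.23, interval -0.0024 to 0.47), Dppa3 (-0.21, interval -0.43 to 0.018), Utf1 (0.078, interval -0.15 to 0.30) and Pou5f1 (-0.19, interval -0.85 to 0.46) did not pass. Of the 7 genes 2 were higher and 1 lower, where 43.9% and 29.3% of all genes were and 73.2% either, a share that was 35.6% with normexp and 44.2% with no background filter. With normexp the calls of Klf4 (0.52) and Esrrb (1.04) ended and that of Zfp42 held.

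With spike-in scaling 17.6% of all calls in IgG against input were higher in place of 60.0%, and the median of all genes moved from 0.22 to -0.58. Klf4 then read -0.17 and its call ended, while Klf5 (-0.57), Dppa3 (-1.0), Utf1 (-0.72) and Pou5f1 (-0.99, adjusted p = 0.0174) passed as lower. Klf5 passed as higher with median (0.28, adjusted p = 0.0346) and quantile (0.34, adjusted p = 0.0187) scaling. The directions of Klf4 and Klf5 in this comparison therefore depend on the scaling, and so does that of Utf1, which did not pass at the scaling used. Without IgG replicate 1, 5 genes passed in place of 3, with Klf5 and Dppa3 added.

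Set against input, the V5 precipitate held more Dppa3 (2.60-fold, 1.38 ± 0.093, limma adjusted p = 3.66e-05), more Klf5 (2.45-fold, 1.29 ± 0.097) and more Klf4 (1.50-fold, 0.59 ± 0.10, adjusted p = 0.00231). Utf1 was 1.61-fold lower (-0.69 ± 0.093, adjusted p = 0.000618). Esrrb stood 1.68-fold above the dimmest spots well above background in input, a description only. Zfp42 did not pass (-0.078, interval -0.31 to 0.16), nor did Pou5f1 (-0.57, interval -1.23 to 0.085). Of the 6 genes other than Esrrb 3 were higher and 1 lower, where 37.7% and 35.5% of all genes were and 73.2% either. Of all calls 51.4% were higher, against 68.9% with median and 26.3% with spike-in scaling, under which the call of Klf4 ended at 0.15, and Zfp42 (-0.51) and Pou5f1 (-1.01, adjusted p = 0.0168) passed as lower. With normexp the calls of Klf4 and Utf1 ended, and Utf1 read 0.082. Pou5f1 also passed as lower without either GFP array and with only the compared groups in the fit (-0.57, adjusted p = 0.00146), which change only the estimate of spread.

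The GFP precipitate held 3.90-fold more Dppa3 than input (1.96 ± 0.093, limma adjusted p = 9.08e-06), 3.89-fold more Klf5 (1.96 ± 0.097, adjusted p = 1.03e-05) and 1.57-fold more Klf4 (0.65 ± 0.10, adjusted p = 0.00133). Utf1 was 1.65-fold lower (-0.72 ± 0.093, adjusted p = 0.000473), and Esrrb stood 2.02-fold above the dimmest spots well above background in input, again as a description. Zfp42 passed narrowly at 1.20-fold (0.26 ± 0.098, adjusted p = 0.0466), and 12 of 20 alternatives ended this call and 1 turned its sign; each left-out array of input, V5 or GFP ended it. With normexp the calls of Klf4 and Utf1 ended as well, and Utf1 read -0.0049. Of the 6 genes other than Esrrb 4 were higher and 1 lower, where 36.2% and 39.1% of all genes were and 75.2% either. Of all calls 48.1% were higher, against 65.9% with median and 31.0% with spike-in scaling. Without GFP replicate 1 Pou5f1 passed as lower at -0.79, and without GFP replicate 2 it read 0.061.

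The comparisons with IgG and with input treat the members differently. Dppa3 and Klf5 were higher in both precipitates against both controls. All of these comparisons cross from the same slide to the other and share arrays, so they are not independent of each other. Klf4 passed as higher in both precipitates against input but not, at the scaling used, against IgG, which lay above input by 0.62. Zfp42 was higher against IgG, which itself lay below input for this gene, and V5 and input did not differ past the threshold. Utf1 was lower against both controls, and with normexp it did not pass against either and read 0.082 with V5 and -0.0049 with GFP against input.

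Zfp42 is the member with 2 measured probes, both matched to the same RefSeq transcript. The second probe, A_52_P629849, read 60.6% and 62.5% in input, 40.3% and 34.8% in IgG, 59.4% and 48.9% in V5, and 72.8% and 64.1% in GFP. Tested on its own in a fit over all 25629 kept probes, it was higher with V5 than with IgG by 0.53 ± 0.13 (limma adjusted p = 0.0156) and with GFP by 0.87 ± 0.13 (adjusted p = 0.0013), and lower in IgG than in input by 0.72 (-0.72 ± 0.13, adjusted p = 0.00214). Against input the second probe did not pass with GFP (0.15, interval -0.15 to 0.46), where the first probe, A_51_P413376, read 0.26 (adjusted p = 0.0501 in that fit). The 2 probes thus gave the same sign in all 6 comparisons.

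The second probes of Klf5 and Esrrb were dim. For Klf5, A_52_P54463 read 0.60% to 1.45% and lay well above background on 0 of 8 arrays, so the Klf5 results rest on A_51_P507290 alone. For Esrrb, A_52_P628212 read 2.09% and 2.72% in input, 2.49% and 3.99% in IgG, 1.70% and 1.45% in V5, and 1.18% and 0.73% in GFP. It lay well above background only on IgG replicate 2, and its order, with GFP lowest, is not that of A_51_P419047, which has GFP highest. Both dim probes rest on cDNA accessions that were matched to no RefSeq transcript of their gene in the table used, and 9 of the 12 member probes were matched.

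**Figure D3:**
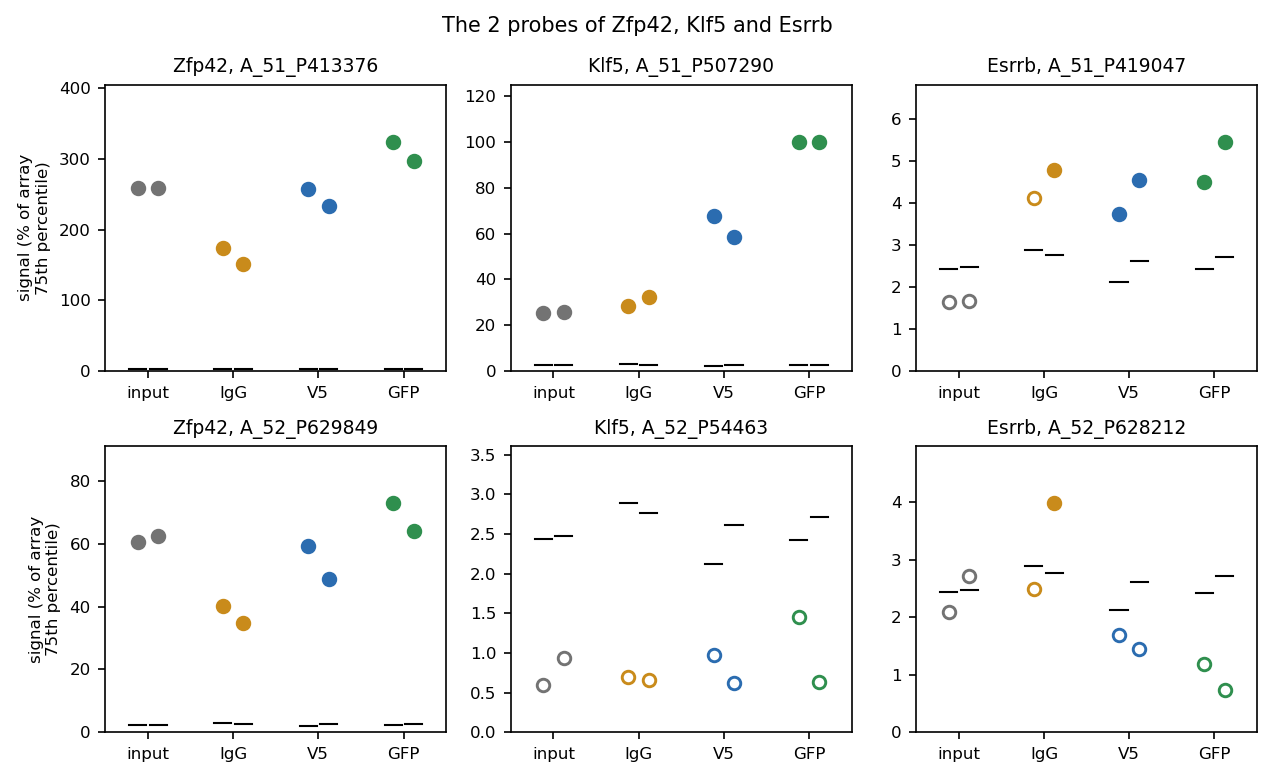
Signal of the 2 probes of Zfp42, Klf5 and Esrrb on each of the 8 arrays, as a percentage of the array's 75th percentile on linear axes from 0; filled points are well above background, open points are not, and short lines mark the dimmest spot well above background. The 2 Zfp42 probes follow the same order of groups, and the second probes of Klf5 and Esrrb are open on all but IgG replicate 2 of Esrrb.

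To place the profiles, each member above background on all 8 arrays was set against 11231 genes by the root mean square difference of log2 profiles centred on their own mean, which is a description over 8 arrays that share 2 slides and 4 groups. Klf5 and Dppa3 were 0.23 apart, the nearest pair among the members. The nearest genes to Klf5 were Kit (0.066), the receptor of differentiating spermatogonia, and Polr2d (0.071), a subunit of RNA polymerase II. Those to Dppa3 were Rbpsuh (0.065), an older symbol of the Notch effector Rbpj, and Eif5a2 (0.08), a translation factor.

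Zfp42 had Mtpn (0.024) and Abhd10 (0.032) next to it, both of which lay below input in IgG and a little above it in GFP. Klf4 lay nearest to Wwc1 (0.04) and Osbp2 (0.053), which stood 0.60 and 0.73 above input in IgG. Utf1 lay nearest to Cxxc6 (0.042), the older symbol of the DNA demethylation enzyme Tet1, and to Mepe (0.069). Pou5f1, with its wide replicate spread, lay no nearer than 0.14 to any gene (Efna5) and 0.16 to the next (Olfr411). The farthest pair of members was Dppa3 and Utf1, at 1.30.

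Other factors of the pluripotency network give the setting of the 9 genes. For each list below, the shares over all genes tested are 16.7% higher and 40.3% lower with V5 against IgG, and 21.6% higher and 52.1% lower with GFP. With normexp 0 genes of any list passed with V5. Of 26 other factors measured, 10 were higher and 5 lower with V5 than with IgG (median 0.06, against -0.21 over all genes), and 12 higher and 6 lower with GFP (median 0.11, against -0.32), so that 38.5% and 46.2% were higher and 19.2% and 23.1% lower. Mycn, a Myc family factor, was higher by 0.83 with V5 and 1.27 with GFP, and Zfx, a zinc finger factor of stem cell self-renewal, by 0.97 and 1.31. Thap11, also called Ronin, was higher by 0.64 and 1.19, and Tcfcp2l1, a factor of naive pluripotency, by 0.53 and 1.06. The 10 calls of higher genes with V5 were 5 without both arrays of conflicting descriptions, where that of Tcfcp2l1 ended. The number lower with V5 was 1 under median and spike-in scaling, 1 without V5 replicate 1 and 2 without V5 replicate 2, and with GFP it was 2 and 1 under those scalings.

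Network genes that do not encode DNA-binding factors include signalling components and RNA-binding proteins. Of 21 measured, 7 were higher (33.3%) and 6 lower (28.6%) with V5 (median -0.20) and 7 higher and 7 lower (33.3% each) with GFP (median -0.14). The number lower with V5 was 12 without IgG replicate 1 and 3 without IgG replicate 2, V5 replicate 1 or V5 replicate 2. The RNA-binding proteins Lin28, named Lin28a today, and Lin28b, which block let-7 maturation, were each higher by 1.10 with V5 and by 1.78 and 1.48 with GFP. The DNA methyltransferase Dnmt3b was higher by 0.67 and 1.24, and the adhesion protein Cdh1 by 0.49 and 0.91. These 4 have the smallest p of the list and are all higher, although as many genes were lower with GFP. The call of Cdh1 ended with normexp in both comparisons, and with V5 without both arrays of conflicting descriptions.

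Of 15 genes known from primordial germ cells 10 were higher (66.7%) and 3 lower (20.0%) with V5 (median 0.67), and 11 higher (73.3%) and 4 lower (26.7%) with GFP (median 1.11). Of these calls 1 with V5 and 3 with GFP were genes above background on both arrays of 1 group and on none of the other, whose direction the filter fixed, and of the 26 other factors these were 1 and 2. Without both arrays of conflicting descriptions 5 were higher with V5. Kit was higher by 1.21 and 1.79, Tcfap2c, a factor of germ cell specification, by 0.82 and 1.24, and Tex19, a germline protein, by 0.76 and 1.19. The zinc finger factor Sall4, chosen after its values were seen, was higher by 0.76 and 1.29, and it fell below the threshold with V5 when its probes were averaged (0.12) and without both arrays of conflicting descriptions. The lists share Lin28, Dppa4, Tcfap2c, Prdm1 and Sall4 among others, and the spermatogonial markers hold Kit and Lin28.

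Markers of cell types moved in the same comparisons, and their counts are read against the 40.3% of all genes lower with V5 and 52.1% with GFP. Of the 12 measured spermatogonial markers 7 were higher and 1 lower with V5 and 9 higher and 2 lower with GFP. Of the 16 Sertoli markers 12 were lower with V5 and 14 with GFP, and so were 6 and 6 of 7 Leydig, 8 and 8 of 8 myoid, 9 and 9 of 10 leukocyte and 8 and 9 of 9 endothelial markers. Of 12 spermatocyte markers 4 were higher and 4 lower with V5 and 5 higher and 4 lower with GFP, and of 8 spermatid markers 5 and 7 were lower. The background filter fixed the direction of some of these marker calls: Prm2 with V5, and Prm2, Tnp2, Nanos2 and Pecam1 with GFP. Prm2 and Tnp2 are spermatid markers, Nanos2 is a spermatogonial and Pecam1 an endothelial marker. With median and spike-in scaling, under which 8.93% and 5.17% of all genes were lower with V5 and 27.8% and 11.9% with GFP, the lower Sertoli markers numbered 1 and 1 with V5 and 11 and 4 with GFP. The lower Leydig markers were then 1 and 0 with V5 and 3 and 2 with GFP, myoid 1 and 0 and 6 and 4, leukocyte 1 and 0 and 7 and 3, and endothelial 3 and 0 and 6 and 2. The higher spermatogonial markers were then 8 and 10 with V5 and 10 and 10 with GFP. Under these scalings 27.6% and 35.2% of all genes were higher with V5 and 30.8% and 39.2% with GFP. At the scaling used above these shares were 16.7% with V5 and 21.6% with GFP. Leaving out both arrays of conflicting descriptions leaves a single V5 array. Fewer Sertoli and Leydig markers were then lower and fewer spermatogonial markers higher with V5, as calls over all genes also fell. The part of these markers in the results of the 9 genes was not tested.

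The families of the members were read in the same comparisons. Of 13 other Kruppel-like factors 2 were higher (15.4%) and 4 lower (30.8%) with V5, near the shares over all genes, and 4 higher (30.8%) and 6 lower (46.2%) with GFP. Klf8 was higher by 1.47 and 1.84 and Klf10 by 1.13 and 1.62, while Klf17 read -1.10 with V5 (0 of 2 V5 arrays above background) and -0.99 with GFP (1 of 2 GFP arrays above background), and -0.12 and -0.25 with normexp. Lower calls in this family were 1 with V5 under median and spike-in scaling and 2 without IgG replicate 2, V5 replicate 1 or V5 replicate 2. With GFP they were 1 under median scaling, ended under spike-in scaling, and were 3 without IgG replicate 2 and 2 without GFP replicate 1.

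Of 17 other Sox genes 4 were higher (23.5%) and 10 lower (58.8%) with V5 and 4 higher (23.5%) and 11 lower (64.7%) with GFP, where 3 of the calls in each were genes above background on both arrays of 1 group and on none of the other. The lower calls numbered 6 and 4 with V5 and 7 and 4 with GFP under median and spike-in scaling, and 7 with GFP without GFP replicate 1. Sox3, a close relative of Sox2 known from spermatogonia, was higher by 1.38 and 1.90, and Sox11 by 1.11 and 1.61, while Sox21 was lower (-0.68 and -1.11), though not with normexp (-0.26 and -0.48) and, with V5, neither over the mean of its probes nor without both arrays of conflicting descriptions. Of 7 other POU genes 3 were higher (42.9%) and 2 lower (28.6%) with V5, and 3 higher and 3 lower (42.9% each) with GFP, and median and spike-in scaling ended the lower calls of both. Lower calls of POU genes were 1 with V5 without IgG replicate 2 or V5 replicate 2, and 1 with GFP without either GFP array. Pou2f1 was higher by 0.80 and 1.06 and Pou3f1 by 0.69 and 1.08, a call with V5 that ended without both arrays of conflicting descriptions. Pou4f1 read -0.56 and -0.53 from its brightest probe but 0.37 and 0.48 over the mean of its probes.

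Relatives of Esrrb and Zfp42 and the other Dppa genes gave 2 higher and 3 lower of 6 with V5 and 2 higher and 4 lower with GFP, where 40.3% and 52.1% of all genes were lower. Yy1, the factor from which Zfp42 derives, was higher by 0.86 and 1.21, and Dppa4 by 0.67 and 1.11. The receptors Esrra (-0.44 and -0.63) and Esrrg (-1.10 and -1.55) were lower. Esrra did not pass under spike-in scaling in either comparison (-0.071 and -0.15), nor with V5 under median scaling (-0.17) and without both arrays of conflicting descriptions. Esrrg did not pass with normexp (-0.35 and -0.59), and without both arrays of conflicting descriptions the calls of Yy1 and Dppa4 with V5 ended.

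**Figure D4:**
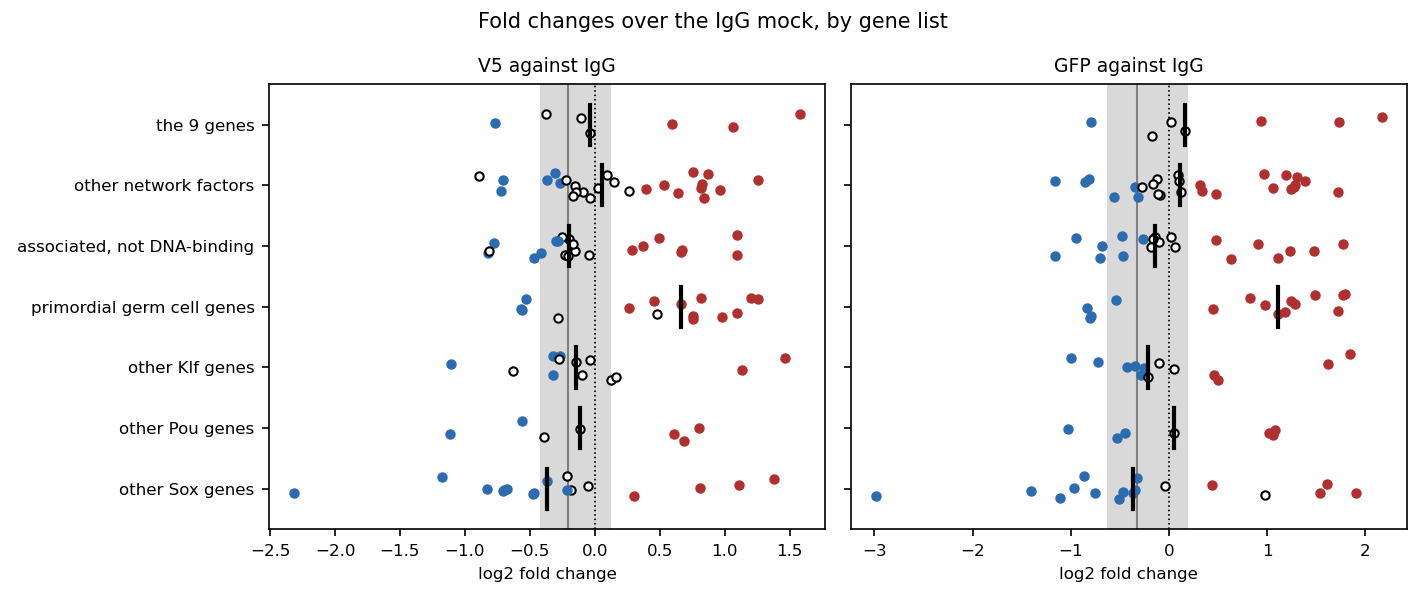
Log2 fold changes of the 9 genes and of 6 lists of related genes in V5 and GFP against IgG; each point is a gene, red where it passed as higher, blue as lower and open where it did not pass, the black bar is the list's median, and the grey band and line give the middle 50% and the median of all genes. Primordial germ cell genes have the medians 0.67 and 1.11, and the members range from -0.77 to 1.58 with V5 and from -0.80 to 2.17 with GFP.

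The authors' deposited table gives group means for input, V5 and GFP, scaled in another way and without the IgG arrays. In the authors' deposited table the ratio to input was 3.16 with V5 and 4.96 with GFP for Dppa3, and 3.03 and 4.93 for Klf5. For Klf4 the authors' deposited table gives 1.82 and 1.87, and for the entries of Zfp42 1.15 and 1.55 and 1.08 and 1.38. Esrrb, not above background in input, gets no ratio here. For Utf1 the authors' deposited table gives 0.756 and 0.747, and for Pou5f1 0.806 and 0.977. Of the entries in the authors' deposited table, 22300 had all 3 group means above 0.5, in the unit of that table. Their median log2 ratio in the authors' deposited table was 0.30 with V5 and 0.29 with GFP. Over the 17593 genes tested, a different set, the scaling used above gave 0.01 and -0.06, and median scaling gave 0.32 and 0.28.

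**Figure D5:**
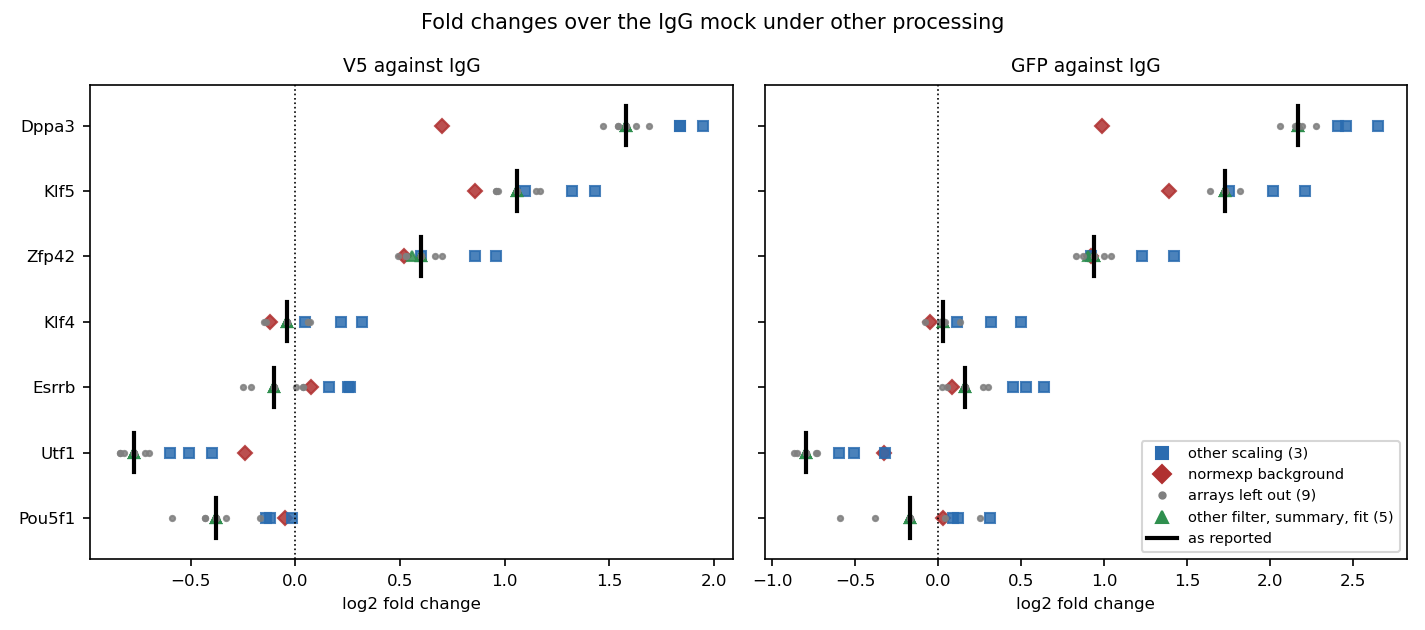
Log2 fold changes of the 7 tested genes against IgG as reported (black bars) and under other processing: 3 other scalings (squares), normexp background correction (diamonds), arrays left out (dots) and other filters, summaries or fits (triangles). Dppa3, Klf5 and Zfp42 lie to the right of 0 and Utf1 to the left under each of these settings in both comparisons, and Klf4, Esrrb and Pou5f1 lie between -0.59 and 0.64.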

How the data were processed

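RNA of 8 samples was hybridised to one-colour Agilent arrays. Per the file headers, the deposited intensity values were made with Feature Extraction 9.1.3.1, which subtracted background and did not scale between arrays. The authors' deposited table holds signal values as group means, normalized by the authors per the file headers; 6 further value columns in it stayed unused. The groups come from the sample titles and antibodies.

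For each array log2 of the processed intensity was taken and its 75th percentile subtracted. Outlier spots were dropped and spots of a probe averaged. A probe was kept where both arrays of any group read it well above background, and the brightest of a gene's kept probes stood for it, which gave 17593 genes, 5951 of them with over 1 kept probe. limma 3.58.1 in R 4.3.3 fitted the group means over the 8 arrays (4 residual and 2.41 prior degrees of freedom). It tested 6 comparisons, each two-sided, adjusted by Benjamini-Hochberg across the genes and called at 0.05, and every adjusted p in the text is limma's. The number of arrays limits the precision. The fit was tested on simulated data.

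The members and lists were chosen with earlier results of these data known. Named are all members, up to 4 genes of each list with the smallest p against IgG, and the 2 genes nearest to each member. RefSeq accessions of GRCm38.p6 served only for names. Alternatives were normexp background correction with an offset of 50, median, quantile and spike-in scaling, other filters and probe summaries, fits of the compared groups or with a replicate block, and arrays left out.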

Additional observations from a re-analysis of the deposited data

How the results depend on the processing

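With 2 arrays per group, 4 residual degrees of freedom and dim probes for Esrrb, Pou5f1, Dppa3 and Utf1, these results carry limits of precision. Of 108 recomputed counts of called members, 90 stayed within 1.5 times their value, and the cause of the other changes was not tested beyond the fewer arrays or genes an alternative holds. Normexp background correction left 0 of 4 calls in V5 against IgG (2 members at an unadjusted p under 0.05), 2 of 4 in GFP against IgG, 1 of 3 in IgG against input, 2 of 5 in V5 against input, 2 of 6 in GFP against input (these counts against input include Esrrb, whose direction there the background filter fixed) and 0 of 2 in V5 against GFP (1 under 0.05). In IgG against input 6 passed with spike-in scaling, and 3 to 5 without single arrays, 5 without IgG replicate 1. In V5 against GFP limma called 0 members with no filter, with only the compared groups, without both arrays of conflicting descriptions (3 under 0.05 each) and with the replicate block (4 under 0.05), and 0 to 3 without single arrays.

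The replicate numbers share only a number: deviations of same-numbered arrays correlated between -0.09 and 0.094 over genes. With the replicate block 4, 4, 3, 5 and 6 members passed in the other 5 comparisons, as without it, and 2 of all genes in place of 2452 in V5 against GFP.

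Over all genes, V5 against IgG had 10036 calls, and 0 with normexp, 6420 with median scaling, 6040 and 6688 without V5 replicate 1 and 2, and 1240 without both arrays of conflicting descriptions. Normexp gave 3223 in place of 12970 in GFP against IgG, 6270 in place of 12886 in IgG against input, 5255 in place of 12877 in V5 against input and 5703 in place of 13238 in GFP against input. In V5 against GFP the 2452 calls became 0 with normexp (801 under 0.05), 4 with no filter, 2 with only the compared groups, 4 without the conflicting arrays, 3865 with genes above background on all arrays, and 3 to 4999 without single arrays, 4999 without either IgG array.

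Signs turned in these cases. In V5 against IgG, Klf4 (-0.039) read 0.22, 0.047 and 0.32 with median, quantile and spike-in scaling, -0.15 to 0.068 without single arrays and 0.062 without both conflicting arrays. Esrrb (-0.10) there read 0.075 with normexp, 0.16, 0.25 and 0.26 with the 3 scalings, -0.25 to 0.039 without single arrays (0.003 without IgG replicate 2) and 0.039 without both conflicting arrays. The mean of probes gave Pou4f1 0.37 with V5 and 0.48 with GFP. In GFP against IgG, Pou5f1 (-0.17) read 0.031 with normexp, 0.12, 0.09 and 0.31 with the scalings, and -0.59 to 0.25 without single arrays, and Klf4 (0.026) read -0.053 with normexp and -0.081 to 0.13 without single arrays.

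In IgG against input, Pou5f1 read 0.35 with normexp and -0.40 to 0.02 without single arrays, Dppa3 0.59 with normexp, and Klf4, Klf5 and Utf1 -0.17, -0.57 and -0.72 with spike-in scaling. In V5 against input, Pou5f1 read 0.30 and Utf1 0.082 with normexp, and Zfp42 0.24 with median scaling. In GFP against input, Pou5f1 read 0.38 with normexp and -0.79 to 0.061 without single arrays, and Zfp42 -0.058 with spike-in scaling. In V5 against GFP, Pou5f1 read -0.63 to 0.22 and Klf4 -0.17 to 0.036 without single arrays, Klf4 0.036 without both conflicting arrays, and Utf1 -0.00019, -0.0041 and -0.088 with the scalings, -0.046 to 0.10 without single arrays and -0.046 without both conflicting arrays.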
